A study of Mus musculus with 18 samples.

Results

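The genes described here carry glucose into the cell and break it down to lactate. They are 10 genes chosen by name from the 40800 Ensembl genes in the deposited count table, namely the glucose transporters *Slc2a1* and *Slc2a3* and the enzymes *Hk1*, *Pfkl*, *Pfkm*, *Aldoa*, *Gapdh*, *Pgk1*, *Pkm* and *Ldha*. Their RNA was measured by RNA-seq in 18 libraries of mouse lens. Each library was made from several pooled whole lenses, and there were 3 libraries in each of 6 groups. In the *Cryaa* line, lenses were taken at 2 days of age from mice called *Cryaa*-WT, *Cryaa*-R49C-het or *Cryaa*-R49C-homo. In the *Cryab* line they were taken at 14 days, and the groups are called *Cryab*-WT, *Cryab*-R120G-het or *Cryab*-R120G-homo. All were on the C57BL/6J background, and the mutant mice carried a point mutation knocked into the αA-crystallin gene (R49C) or the αB-crystallin gene (R120G) on 1 chromosome (het) or both (homo). Each mutation was thus present in every cell from conception and at the gene's own promoter. Both lines model hereditary human cataract. Line and age change together, and their parts in any difference between lines cannot be told apart. The labels give the mutant *Cryab* libraries a genotype that names the other line, and their titles were followed.

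Glucose enters cells through carriers of the GLUT family, of which *Slc2a1* encodes GLUT1 and *Slc2a3* encodes GLUT3, the carrier best known from neurons. Hexokinase, phosphofructokinase and pyruvate kinase catalyse the steps of glycolysis that run in 1 direction under cell conditions, and lactate dehydrogenase regenerates the NAD+ that lets the pathway continue without oxygen. The lens has no blood supply and its mature fibre cells lose their mitochondria and nuclei, so most of the lens lives on anaerobic glycolysis of glucose from the aqueous humour. Many of these genes are also known targets of the hypoxia-inducible factor HIF-1.

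The libraries held 14272174 to 29639719 counts of uniquely aligned reads. Crystallin genes took 23.8% to 76.1% of the counts, and *Gm42418*, a gene that overlaps annotated ribosomal RNA, took 2.53% to 42.6%. The 10 genes together took 0.0287% to 0.158%. The lens fibre markers fixed for this work were abundant in every library, with 9 of 10 markers counted and *Lim2* listed at 0 in all libraries. A library stood apart in each homo group. *Cryaa*-R49C-homo replicate 1 had 2.53% of its counts on *Gm42418* and 61.2% on crystallins, against 24.5% and 42.6% on *Gm42418* and 37.7% and 23.8% on crystallins in replicates 2 and 3. It also had the largest share of counts on the 10 genes. *Cryab*-R120G-homo replicate 3 had 23.2% of its counts on *Gm42418* and 60.1% on crystallins, against 9.85% and 7.97% on *Gm42418* and 72.5% and 76.1% on crystallins in replicates 1 and 2. For most single genes whose fold change rests on these libraries, values are given with and without them. Medians over genes and ratios of genes are given with all libraries only. In whole-lens RNA, fewer cells of a type and less RNA per cell cannot be told apart. Libraries of a group came from separate pools of lenses, so the p-values measure the spread between pools.

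The promoters of 3 of the genes are shown because the pathway is a known target of HIF-1, whose binding core is ACGTG. *Pgk1* is the gene called below, *Ldha* had the most matches and *Gapdh* had few. RefSeq promoter windows on GRCm38, from 250 bases before to 50 bases after a start site, were matched to 9 of the 10 genes. *Slc2a3* had no match. ACGTG was searched on both strands, so that each CACGTG, the E-box palindrome, counts as 2 overlapping matches. It was found in 10 of the 17 windows of the 9 genes, against 19.6% of 32851 RefSeq windows. Windows of a gene can overlap, and 1 match of *Aldoa* is counted in 2 of the 10. By gene, 8 of the 9 had ACGTG in at least 1 window. That count takes several windows for some genes and cannot be set against 19.6%. CACGTG was in windows of *Pfkm* and *Ldha* and in 7.15% of all windows. The ATF4 composite motif TGATGNAAT was in no window of these genes and in 0.965% of all windows. A match is a description of letters and was not tested for binding. The 250 bases before a start site are given 5′ to 3′ on the strand of the gene, with matches to ACGTG in capitals on either strand. Those of *Pgk1* lie at chrX:106186850-106187099 on the plus strand, directly before the annotated gene. Those of *Ldha* lie at chr7:46845554-46845803 on the plus strand and those of *Gapdh* at chr6:125165774-125166023 on the minus strand, both inside introns of longer annotated transcripts of the same gene.
Pgk1: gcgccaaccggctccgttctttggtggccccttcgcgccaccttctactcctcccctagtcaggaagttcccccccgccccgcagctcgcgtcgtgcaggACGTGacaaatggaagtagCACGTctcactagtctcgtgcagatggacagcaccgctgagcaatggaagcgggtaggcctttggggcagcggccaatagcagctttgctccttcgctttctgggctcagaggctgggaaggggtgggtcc
Ldha: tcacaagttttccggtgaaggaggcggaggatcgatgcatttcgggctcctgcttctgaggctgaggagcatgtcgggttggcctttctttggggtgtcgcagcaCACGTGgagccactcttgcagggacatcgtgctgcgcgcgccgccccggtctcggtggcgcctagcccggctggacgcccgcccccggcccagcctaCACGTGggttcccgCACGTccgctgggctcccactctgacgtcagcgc
Gapdh: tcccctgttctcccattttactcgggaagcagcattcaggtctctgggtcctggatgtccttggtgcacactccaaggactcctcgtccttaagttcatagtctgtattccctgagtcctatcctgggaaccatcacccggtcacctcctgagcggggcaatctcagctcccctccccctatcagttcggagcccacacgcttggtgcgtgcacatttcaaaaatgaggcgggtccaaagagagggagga
The *Pgk1* stretch holds ACGTG at 2 places, the *Ldha* stretch at 3 places of which 2 are palindromes, and the *Gapdh* stretch at none. The 1 match of *Gapdh* lies in the 50 bases after its start.

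Per length, *Pkm*, *Aldoa*, *Ldha* and *Slc2a1* had the highest levels of the 10 genes in the WT lens, and *Pfkm*, *Hk1* and *Slc2a3* the lowest. Levels are given as CPM, a count relative to its library total after scaling by the trimmed mean of M values (TMM), and as CPM per kb of gene length where genes are compared with each other. In *Cryaa*-WT, *Pkm* (pyruvate kinase, which makes pyruvate and ATP) stood at 65.8 ± 3.26 CPM per kb (SD, n = 3), above 99.05% of the 13938 genes tested. *Aldoa* (aldolase A, which splits fructose bisphosphate) followed at 43.0 ± 2.26 CPM per kb. *Ldha* (lactate dehydrogenase A) at 20.7 ± 3.28 and *Slc2a1* at 18.7 ± 1.31 CPM per kb overlapped in their libraries. *Pfkl* (liver-type phosphofructokinase) at 4.13 ± 0.386 and *Gapdh* (glyceraldehyde 3-phosphate dehydrogenase) at 3.67 ± 0.665 CPM per kb overlapped as well. *Gapdh*, often used as an abundant reference gene, thus lay well below *Pkm*, *Aldoa* and *Ldha* in these counts, and 25.1% of its 50-base words also occur in other annotated genes, where a uniquely aligned read cannot be assigned. That share was 25.8% for *Pkm*, 9.26% for *Ldha* and 6.43% for *Aldoa*. Words were pooled over all annotated transcripts of a gene, so the share within a single transcript can differ and was not measured. Most shared words of *Gapdh* (24.6% of its words) occur in *Gm7336*, and 12.1% of the words of *Pkm* occur in *Gm49759*. The level of *Gapdh* relative to the other genes is therefore uncertain.

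Below these came *Pgk1* (phosphoglycerate kinase) at 1.54, *Pfkm* (muscle-type phosphofructokinase) at 0.544, *Hk1* (hexokinase 1) at 0.325 and *Slc2a3* at 0.0470 CPM per kb, above 68.0%, 40.3%, 27.3% and 1.97% of the tested genes. The libraries of these 4 neighbours did not overlap in *Cryaa*-WT. *Cryab*-WT gave the same order of means, from *Pkm* at 91.1 ± 4.64 and *Aldoa* at 69.4 ± 5.42 CPM per kb to *Hk1* at 0.293 and *Slc2a3* at 0.0187. The order differed in the homo groups. *Aldoa* had the highest mean in *Cryaa*-R49C-homo (57.4 ± 29.3, against 49.1 ± 33.4 CPM per kb for *Pkm*) and in *Cryab*-R120G-homo (73.6 ± 12.7 against 73.5 ± 8.75), with overlapping libraries in both. *Hk1* stood above *Pfkm* in both homo groups, also with overlap. The level of *Pgk1* is uncertain, since 53.9% of its 50-base words occur in another gene, mostly the retrogene *Pgk1-rs7*, to which 0 to 6 reads per library were assigned. The isoforms M1 and M2 of *Pkm* cannot be told apart from counts per gene.

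**Figure D1:**
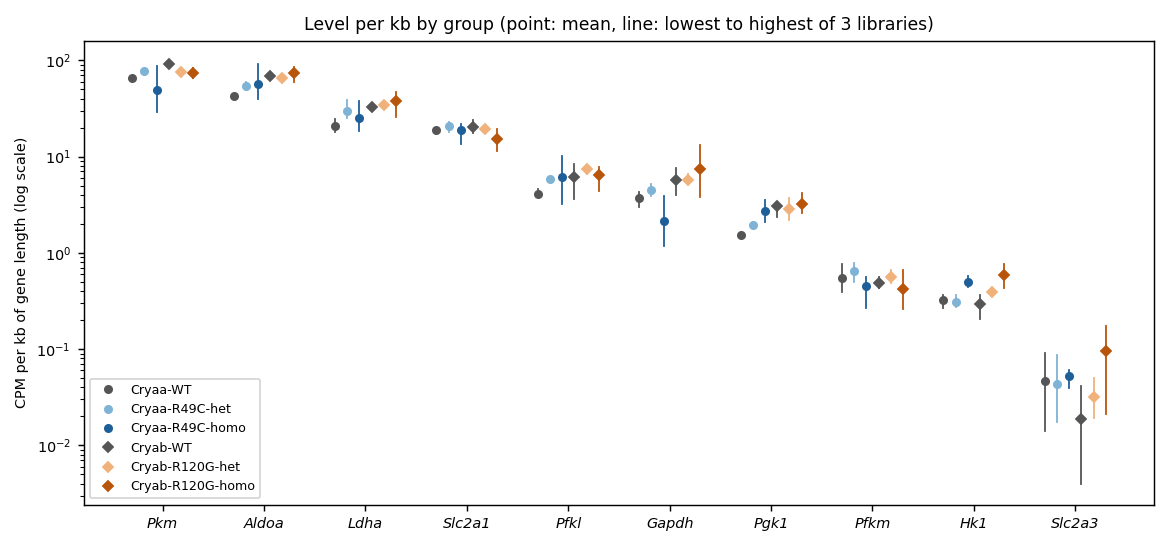
Level of each gene per kb of gene length in the 6 groups, in TMM-scaled CPM on a log axis. Points are means of 3 libraries and lines run from the lowest to the highest library. *Pkm*, *Aldoa*, *Ldha* and *Slc2a1* lie at the top in every group, and *Slc2a3* lies at the bottom in every group.

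The differences between genotypes were tested with edgeR's quasi-likelihood test in 1 model of the 6 groups, and a gene was called when its Benjamini-Hochberg adjusted p (FDR) over all 13938 tested genes was at most 0.05. All 10 genes passed the filter on low counts, *Slc2a3* with few reads. Fold changes are on the log2 scale with their SE from this model. Comparisons of het and homo with WT share the same WT libraries.

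In *Cryaa*-R49C-het lenses none of the 10 genes was called against *Cryaa*-WT. In this comparison 0.00717% of all tested genes were called, and 5.09% (709 genes) had an unadjusted p under 0.05, against 0 of the 10. The het libraries lay above all WT libraries for 5 of the 10 genes, *Pfkl*, *Aldoa*, *Pgk1*, *Pkm* and *Ldha*, where 9.57% of all tested genes did so (21.9% in either direction), and none lay below all WT libraries. The make-up of the libraries differed as well. *Gm42418* took 11.9% to 17.97% of the counts in het and 20.0% to 30.1% in WT, and crystallins 52.8% to 61.4% against 46.3% to 48.99%, with no overlap. None of the markers of other cell types was called. The part of library make-up in the values of the 10 genes was not tested. The fold change was positive for 8 of the 10 genes, with a median of 0.27 against -0.01 over all tested genes. *Ldha* read 58.7, 54.0 and 72.8 CPM in the WT libraries and 77.1, 74.9 and 116 in the het libraries. The groups did not overlap, and the log2 fold change was 0.53 (SE 0.27, 95% interval -0.02 to 1.08, edgeR FDR 0.84). It ran from 0.30 to 0.67 when any 1 library was left out. *Pfkl* read 16.8, 17.6 and 20.1 CPM in WT and 25.1, 26.7 and 25.0 in het, with a log2 fold change of 0.49 (SE 0.33, edgeR FDR 0.84).

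In *Cryaa*-R49C-homo lenses *Pgk1* rose and no other gene of the 10 was called against *Cryaa*-WT, where 9.79% of all tested genes were called. Fold changes were positive for 7 of the 10 and their median was 0.22, against 0.00 over all tested genes. This summary rests on homo replicate 1. Without that library *Pfkl* (-0.05), *Aldoa* (-0.09) and *Ldha* (-0.12) turned negative and the remaining genes kept their sign. The libraries of the 2 groups did not overlap for *Pgk1* and *Hk1*, 2 of 10 genes, against 24.5% of all tested genes. These 2 genes also had an unadjusted p under 0.05, against 24.3% of all tested genes. The transporters act first in the pathway. *Slc2a1* read 49.2, 54.5 and 56.5 CPM in WT, 51.9, 66.0 and 59.6 in het and 38.3, 61.2 and 62.7 in homo. All groups overlapped, and the log2 fold change of homo against WT was 0.02 (SE 0.22, 95% interval -0.45 to 0.48). *Slc2a3* had 3 to 19 reads in the WT libraries, 4 to 25 in het and 11 to 14 in homo. The groups overlapped, and the log2 fold change of homo against WT was 0.14 with a wide SE of 0.75.

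*Hk1*, which traps glucose in the cell as glucose 6-phosphate, read 2.30, 2.94 and 3.08 CPM in WT, 3.11, 2.34 and 2.47 in het and 3.79, 4.02 and 4.87 in homo. Every homo library lay above every WT and het library. The log2 fold change was 0.60 (SE 0.25, 95% interval 0.07 to 1.13, edgeR FDR 0.14) against WT and 0.68 (SE 0.25, FDR 0.10) against het, neither of which passed. Without homo replicate 1 they were 0.67 (FDR 0.077) and 0.74 (FDR 0.038), so that the difference from het then passed. *Hk1* shares 157 exon bases with the antisense gene *Hk1os*, which had 7 to 19 counts in WT, 15 to 38 in het and 26 to 65 in homo libraries. The strand setting of the counting is not stated, and reads from the overlap cannot be assigned to 1 of the 2 genes.

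The phosphofructokinase genes encode the main control point of glycolysis. *Pfkl* read 45.0 CPM in homo replicate 1 and 14.2 and 20.9 in replicates 2 and 3, so that the homo group spanned the WT and het groups (log2 fold change against WT 0.56, SE 0.33, edgeR FDR 0.31; -0.05 without replicate 1). *Pfkm* read 1.41, 1.15 and 2.28 CPM in WT, 1.47, 1.96 and 2.29 in het and 1.52, 0.786 and 1.67 in homo, all overlapping. The ratio of *Pfkl* to *Pfkm* per kb within a library was 8.10 ± 2.19 in WT, 9.32 ± 2.08 in het and 13.5 ± 5.88 in homo (SD, n = 3). Homo replicate 1 had a ratio of 19.9, and replicates 2 and 3 had 12.2 and 8.41. The exact permutation test of the log2 ratio gave two-sided p values of 0.2 (homo against WT), 0.5 (het against WT) and 0.4 (homo against het), where 3 libraries against 3 cannot go below 0.1.

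*Aldoa* read 124, 119 and 112 CPM in WT, 146, 164 and 137 in het and 251, 109 and 113 in homo. Homo replicate 1 was the highest library of the line, and replicates 2 and 3 lay under or at the lower end of the WT range. The log2 fold change against WT was 0.42 (SE 0.25, edgeR FDR 0.34), and -0.09 without replicate 1. *Ldha* was also highest in replicate 1 among the homo libraries, with 113 CPM, just under the 116 CPM of het replicate 3. Homo replicates 2 and 3 had 55.3 and 59.0 CPM, inside the WT range. Its log2 fold change against WT was 0.29 (SE 0.27, edgeR FDR 0.56), and -0.12 without replicate 1. Against het it was -0.24, and without replicate 1 it was -0.65 (SE 0.22, edgeR FDR 0.032).

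*Gapdh*, which makes the NADH that *Ldha* consumes, read 7.67, 11.1 and 9.49 CPM in WT, 9.997, 11.4 and 13.2 in het and 9.95, 3.02 and 3.65 in homo. Homo replicates 2 and 3 lay under every other library of the line, and replicate 1 lay inside the WT range and just under the het range. With all libraries the log2 fold change was -0.75 against WT (SE 0.43, 95% interval -1.66 to 0.16, edgeR FDR 0.31) and -1.05 against het (SE 0.43, FDR 0.15). Against WT it was -0.27 (FDR 0.75) when libraries were scaled by their total counts alone and -1.20 (FDR 0.0054) by the edgeR likelihood-ratio test. Without homo replicate 1 it was -1.50 (SE 0.42, FDR 0.018) and -1.80 (SE 0.42, FDR 0.0049), and both passed. *Pkm* read 180.2, 170 and 164 CPM in WT, 188, 209 and 199.6 in het and 228, 75.7 and 78.9 in homo. Its 2 low homo libraries lay far under all others and replicate 1 lay above all of them. The log2 fold change against WT was -0.42 (SE 0.29, 95% interval -1.02 to 0.17, edgeR FDR 0.40) with all libraries, 0.06 when libraries were scaled by their total counts alone, and -1.15 (SE 0.17, FDR 2.41e-05) without replicate 1. Against het it was -0.64 (FDR 0.18) and, without replicate 1, -1.37 (FDR 2.54e-06).

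*Pgk1*, the enzyme of the first ATP-yielding step, read 3.71, 3.31 and 3.36 CPM in WT, 4.11, 4.74 and 4.24 in het and 7.95, 5.81 and 4.71 in homo. Every homo library lay above every WT library, while the lowest homo library lay inside the het range. The log2 fold change against WT was 0.84 (SE 0.25, 95% interval 0.31 to 1.36, edgeR FDR 0.038). The call was lost when any 1 of the 3 WT libraries or homo replicate 1 or 2 was left out, with log2 fold changes of 0.61 to 0.89 and FDR of 0.066 to 0.14, and it remained without homo replicate 3. The retrogene *Pgk1-rs7* had 4 counts over the 3 WT libraries and 14 over the 3 homo libraries. In homo against het none of the 10 genes was called with all libraries, where 8.32% of all tested genes were. At an unadjusted p under 0.05 there were 3 of the 10 (*Hk1*, *Gapdh* and *Pkm*), against 23.7% of all tested genes, and the libraries did not overlap for 2 (*Hk1* and *Gapdh*), against 22%. Without homo replicate 1, *Hk1* rose and *Gapdh*, *Pkm* and *Ldha* fell, 4 of 10 in a fit that called 28.7% of all tested genes. Against WT that fit called 2 of the 10 (*Gapdh* and *Pkm*) and 21.5% of all tested genes.

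Vessel, macrophage and erythrocyte markers were lower in homo replicate 1 than in replicates 2 and 3. The summed level of the 8 vessel and mesenchyme markers was 20.9 CPM in homo replicate 1 and 71.0 and 63.9 CPM in replicates 2 and 3, against 20.2 to 38.3 in WT. None of these markers was at 0 in the whole group, and 1 of the 8, *Cdh5* of endothelium, was called higher in homo than in WT (log2 fold change 1.78). The 8 macrophage and microglia markers summed to 16.7, 29.1 and 34.5 CPM in homo and to 6.99 to 16.2 in WT, with 2 of 8 called higher (*C1qa*, 1.53, and *Aif1*, 1.49). Each of these 3 calls was lost without WT replicate 1 or 2 or homo replicate 2 or 3, and those of *Cdh5* and *Aif1* also without WT replicate 3. The erythrocyte markers summed to 41.5, 149.8 and 79.5 CPM in homo and to 36.8 to 57.8 in WT, with 0 of 5 tested called. The sums of fibre and of epithelium markers did not set replicate 1 apart, while single markers depended on it. The lens fibre markers summed to 5288, 5041 and 4335 CPM in homo and to 7710 to 12409 in WT, and 5 of 9 tested were called lower. Among them were *Bfsp1* (beaded filament, -2.23), *Birc7* (-1.94), *Dnase2b* (the nuclease that degrades fibre DNA, -1.31) and *Crygs* (-0.94), of which *Crygs* was lost without WT replicate 1 or 2 or homo replicate 1 or 3. The lens epithelium markers summed to 85.3 to 88.1 CPM in homo and 103 to 118 in WT, with 1 of 6 called lower (*Gja1*, -2.00). The pigment cell markers summed to 9.73 to 15.2 CPM in homo and 18.6 to 36.0 in WT, with 2 of 8 called lower (*Pmel*, -2.02, and *Mlana*, -2.17, the latter lost without any 1 WT library or homo replicate 2 or 3). Without homo replicate 1 the log2 fold changes of *Birc7* (-2.09), *Dnase2b* (-1.73), *Gja1* (-2.41), *Pmel* (-2.76) and *Mlana* (-3.38) lay further from 0. So did those of *Cdh5* (2.28), *C1qa* (1.83) and *Aif1* (1.85), while *Bfsp1* (-1.94) and *Crygs* (-0.83) lay closer to it. With library size alone *Dnase2b* (-0.80), *Crygs* (-0.46), *Pmel* (-1.60) and *Mlana* (-1.73) did not pass. The part of cell makeup and of the *Gm42418* share in these differences was not tested.

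**Figure D2:**
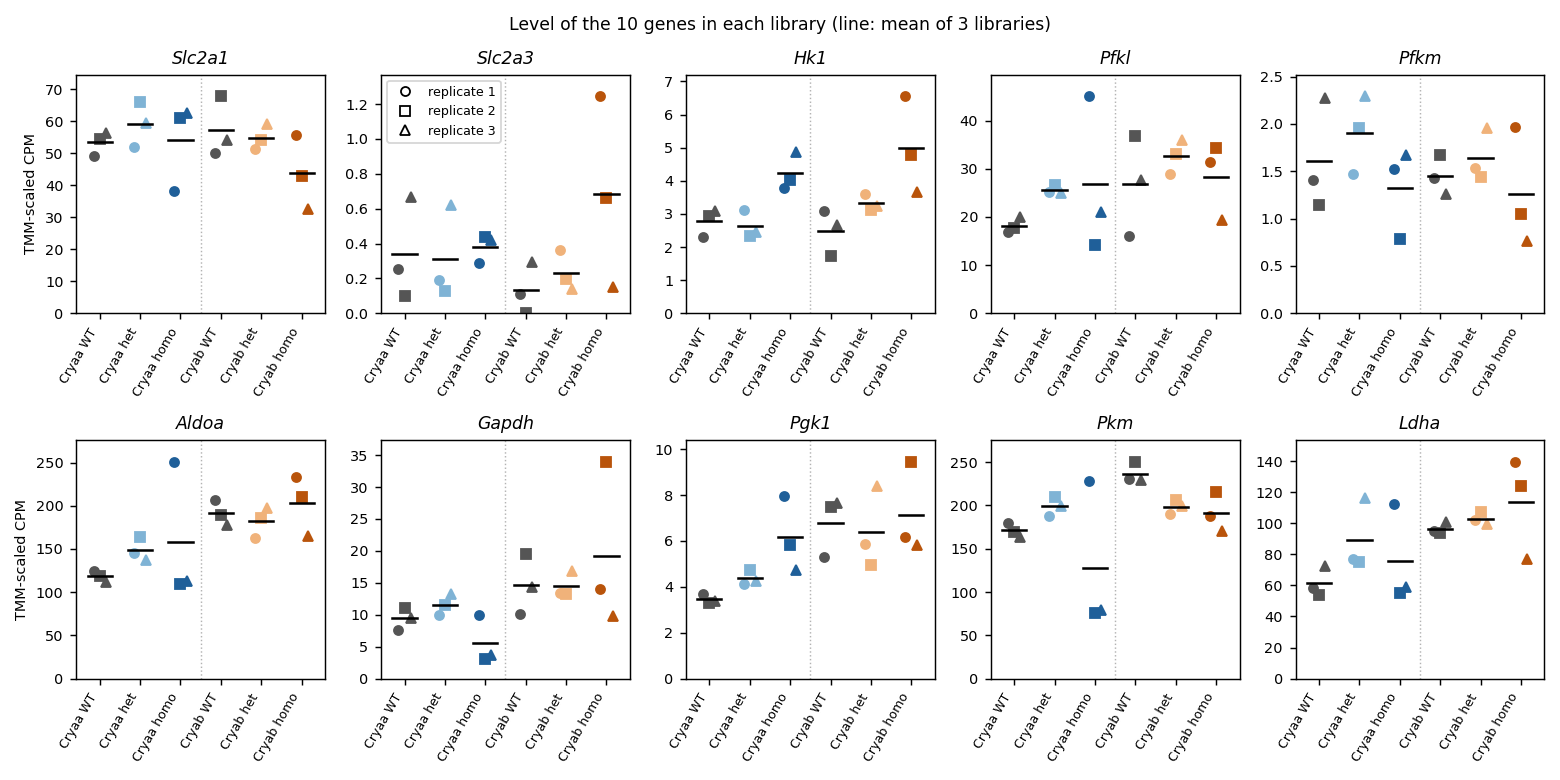
TMM-scaled CPM of each gene in every library, with the WT, het and homo groups of the *Cryaa* line (2 days) left of the dotted line and those of the *Cryab* line (14 days) right of it. Symbols mark replicate numbers and bars are means of 3 libraries. *Pfkl*, *Aldoa*, *Gapdh*, *Pkm* and *Ldha* show *Cryaa*-R49C-homo replicate 1 far from replicates 2 and 3, while *Hk1* shows all homo libraries of either line above their WT libraries.

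**Figure D3:**
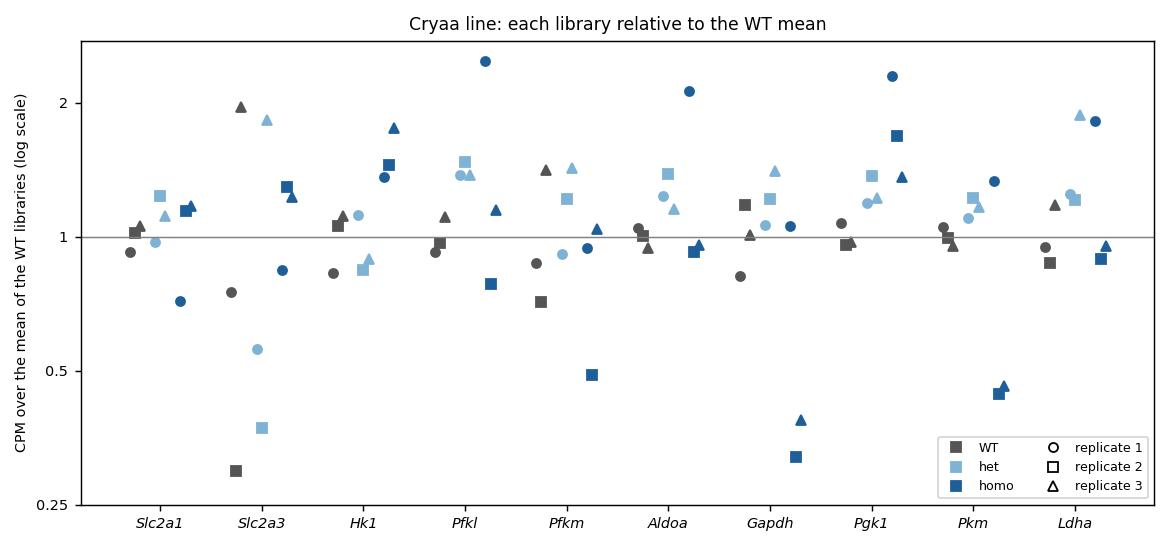
CPM of the *Cryaa* line over the mean of the 3 WT libraries, on a log axis, with 1 point per library. Homo replicate 1 lies near 2 for *Pfkl*, *Aldoa*, *Pgk1* and *Ldha*, and homo replicates 2 and 3 lie under 0.5 for *Gapdh* and *Pkm*.

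In the *Cryab*-R120G line none of the 10 genes was called. Against *Cryab*-WT, 0.00717% of all tested genes were called in het and 0.0502% in homo, and homo against het gave 0% (0 genes by edgeR, with 274 genes, 1.97%, at an unadjusted p under 0.05). Among the 10 genes, 0 had an unadjusted p under 0.05 in het and 2 in homo (*Hk1* and *Slc2a3*), against 3.82% and 6.1% of all tested genes. The libraries did not overlap for 2 of the 10 in het and 2 in homo, where 10.1% and 9% of all tested genes did not. They were *Hk1*, higher in both, and *Pkm*, lower in both. In homo against het *Hk1* alone did not overlap, 1 of 10 against 6.86%.

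*Hk1* read 3.08, 1.73 and 2.67 CPM in *Cryab*-WT, 3.61, 3.13 and 3.22 in het and 6.55, 4.79 and 3.67 in homo. The 3 groups lay apart, each homo library above each het library and each het library above each WT library. The log2 fold change of homo against WT was 1.02 (SE 0.27, 95% interval 0.45 to 1.59, edgeR unadjusted p 0.0012, FDR 0.41), and that of het against WT was 0.43 (SE 0.28, not called). It stayed between 0.78 and 1.198 when any 1 library was left out, with the highest value and an FDR of 0.13 without homo replicate 3. The edgeR likelihood-ratio test called it with an FDR of 0.026. The antisense gene *Hk1os* had 4 to 9 counts in WT, 9 to 14 in het and 9 to 18 in homo libraries of this line. *Slc2a3* was counted 1, 0 and 4 times in WT, 4, 3 and 2 times in het and 19, 12 and 2 times in homo, so that homo replicates 1 and 2 were high and replicate 3 lay within the het and WT counts. With 5 counts over the WT group and 33 over the homo group, the edgeR FDR was 0.74.

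The 8 photoreceptor markers summed to 819, 22.3 and 84.9 CPM in *Cryab*-WT, 625, 293 and 99.2 in het and 1226, 625 and 208 in homo. The 8 inner retina and glia markers summed to 44.3, 4.74 and 5.12 CPM in WT and 72.3, 35.5 and 21.0 in homo. *Hk1*, *Slc2a3* and both sums had the same order of the homo libraries, with replicate 1 highest and replicate 3 lowest. The other groups did not share that order throughout. In het, *Hk1* was lowest in replicate 2 while both sums were lowest in replicate 3. In WT, replicate 1 had the highest sums and the highest *Hk1*, but *Slc2a3* had the most counts in replicate 3. WT replicate 1, with 819 CPM of photoreceptor markers, had less *Hk1* than every het and homo library, among them het replicate 3 with 99.2 CPM. The 8 pigment epithelium and melanocyte markers, like *Hk1*, lay apart from WT in both mutant groups. They summed to 6.61, 7.74 and 8.31 CPM in WT, 60.1, 29.1 and 19.5 in het and 32.4, 31.7 and 17.97 in homo, with the homo libraries in the order of *Hk1* and with het and homo overlapping. None of the markers of these 3 lists was called in the 6-group model in either comparison. No retinal marker was at 0 in a whole group, and *Tyr* of the pigment list was at 0 in WT. The part of these cells in the *Hk1* and *Slc2a3* values was not tested.

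The abundant enzymes differed by less. *Pkm* read 230.3, 251 and 229 CPM in *Cryab*-WT, 190.4, 206 and 199.6 in het and 187, 216 and 171 in homo. Both mutant groups lay under WT in all their libraries, with log2 fold changes of -0.25 in het and -0.31 in homo (SE 0.29 in both, edgeR FDR 0.95 in homo), and scaling by total counts alone turned the homo value to 0.06. *Slc2a1* read 50.0, 67.9 and 54.2 CPM in WT, 51.5, 54.1 and 59.3 in het and 55.7, 43.0 and 32.7 in homo. Homo overlapped WT, with a log2 fold change of -0.39 (SE 0.23, 95% interval -0.86 to 0.08, edgeR FDR 0.89), and 0.0080 with scaling by total counts alone. *Aldoa* lay between 162 and 234 CPM over the 9 libraries of the line, and its log2 fold change was 0.08 in homo with a 95% interval of -0.44 to 0.61. *Ldha* read 95.1, 93.9 and 101 CPM in WT and 139.9, 124 and 77.2 in homo, and *Gapdh* 10.1, 19.5 and 14.4 in WT and 14.0, 34.0 and 9.79 in homo. In both genes 1 homo library, replicate 3, lay under the WT range. The log2 fold change of *Ldha* against WT was 0.24 (SE 0.27, edgeR FDR 0.96), and 0.45 (FDR 0.55) without that library. That of *Gapdh* was 0.39 (SE 0.43, FDR 0.96), 0.70 (FDR 0.54) without homo replicate 3 and -0.31 without homo replicate 2, so that its sign rests on replicate 2. Without homo replicate 3 *Slc2a1* had -0.22, and none of the 10 genes was called against WT or het. *Pgk1* spanned 5.29 to 7.64 CPM in WT and 5.81 to 9.46 in homo, with a log2 fold change of 0.07 (95% interval -0.47 to 0.60). The ratio of *Pfkl* to *Pfkm* per kb was 12.4 ± 4.23 in WT, 13.5 ± 1.76 in het and 16.6 ± 5.65 in homo, with exact permutation p values of 0.4 to 0.8 (two-sided, smallest possible 0.1).

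**Figure D4:**
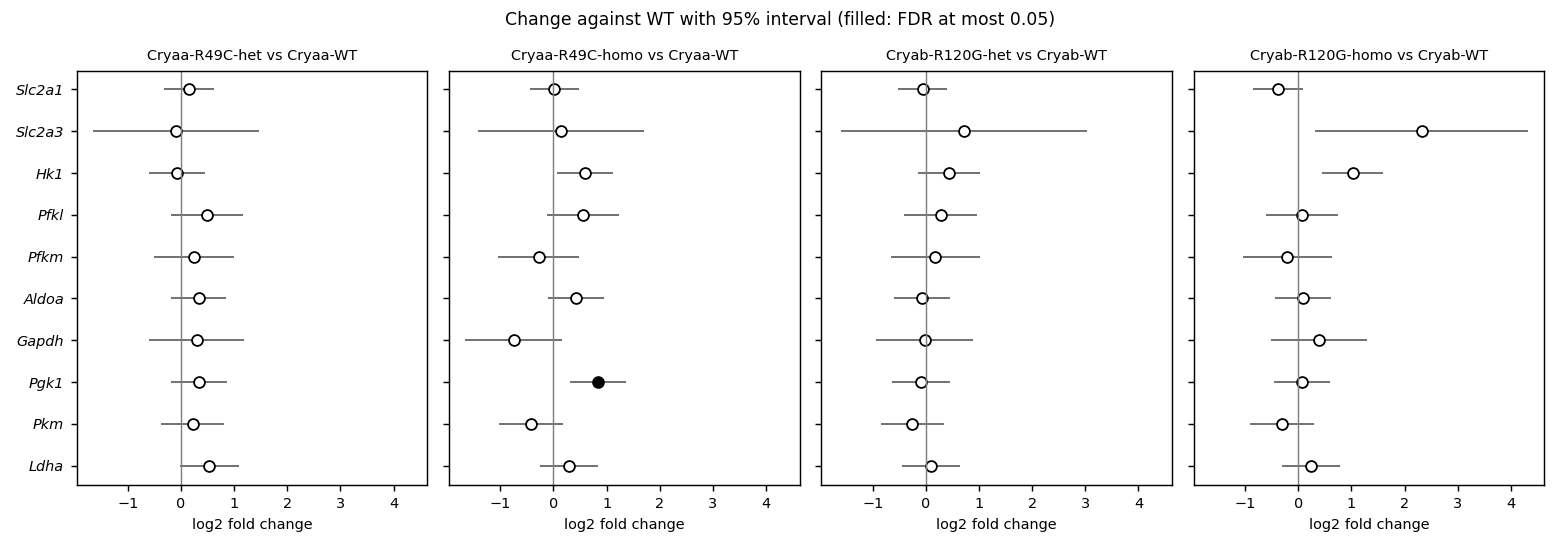
Log2 fold change of each gene against WT of its own line, with the 95% interval from edgeR, in the 4 mutant groups. Filled points passed an FDR of 0.05, which only *Pgk1* in *Cryaa*-R49C-homo did. The interval of *Hk1* in *Cryab*-R120G-homo (0.45 to 1.59) lies above 0 without passing.

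Between the WT groups, *Pgk1* was higher in *Cryab*-WT at 14 days than in *Cryaa*-WT at 2 days, where 23.2% of all tested genes were called. It read 5.29, 7.47 and 7.64 CPM against 3.71, 3.31 and 3.36, with no overlap and a log2 fold change of 0.98 (SE 0.26, 95% interval 0.44 to 1.52, edgeR FDR 0.0089). *Aldoa* (207, 189 and 177 against 124, 119 and 112 CPM, log2 fold change 0.69, SE 0.25, FDR 0.053), *Ldha* (0.64, SE 0.27, FDR 0.084) and *Pkm* (0.47, SE 0.29, FDR 0.26) were also apart in all libraries and did not pass. Thus 4 of the 10 genes did not overlap, all higher in *Cryab*-WT, against 20.2% of all tested genes in that direction and 43.2% in either. At an unadjusted p under 0.05 there were 3 of the 10 (*Aldoa*, *Pgk1* and *Ldha*), against 35.6%. The median over the 10 was 0.52, against -0.07 over all tested genes, and 7 of 10 were positive. These directions rest on TMM. Scaled by total counts alone, the median of all genes shifted to -1.61, and *Pgk1* (-0.57), *Aldoa* (-0.86), *Ldha* (-0.96) and *Pkm* (-1.08) turned negative yet stood above that median.

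No gene of the 10 had a homo effect that was called different in the 2 lines, where 2.91% of all tested genes had. At an unadjusted p under 0.05 it was 1 of the 10 (*Pgk1*), against 15.4% of all tested genes. For *Hk1* the difference, *Cryab* minus *Cryaa*, was 0.42 (SE 0.37, 95% interval -0.35 to 1.197, edgeR FDR 0.65). For *Pgk1* it was -0.77 (SE 0.36, 95% interval -1.52 to -0.02, FDR 0.31), and for *Gapdh* 1.14 (SE 0.61, FDR 0.39). Without *Cryaa*-R49C-homo replicate 1, *Gapdh* (1.89, SE 0.54, FDR 0.032) and *Pkm* (0.84, SE 0.22, FDR 0.012) passed, in a fit that called 12.5% of all tested genes. These were the largest values among the fits that left out 1 library, where the lowest were 0.44 for *Gapdh* and -0.16 for *Pkm*. In the het effect 0% of tested genes differed (0 by edgeR, with 352 genes at an unadjusted p under 0.05), and none of the 10 had an unadjusted p under 0.05, against 2.53% of all tested genes.

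Other genes of glucose metabolism and other HIF-1 targets changed in *Cryaa*-R49C-homo. Over 9 further lists, the other HIF-1 targets among them, 11 of 67 genes tested (16.4%, against 9.79% of all tested genes) were called against WT. Of these 5 were higher and 6 lower. The lists are called pathway lists below. Of the 15 other glycolysis enzymes tested (of 21 listed), 0 rose and 2 fell. *Pgam2*, the muscle-type phosphoglycerate mutase that acts directly after *Pgk1*, read 333, 310 and 204 CPM in WT and 88.7, 42.5 and 56.5 in homo, with no overlap. Its log2 fold change was -2.17 (SE 0.27, edgeR FDR 1.19e-05), and it was -2.52 without homo replicate 1. *Aldoc*, the aldolase best known from brain, fell by 0.96 on the log2 scale (SE 0.23, edgeR FDR 0.0089). Of 5 other hexose carriers tested (of 11), 1 fell, *Slc2a8*, which encodes the intracellular carrier GLUT8. It read 6.65, 5.47 and 4.98 CPM in WT and 1.32, 1.26 and 1.94 in homo (log2 fold change -1.92, SE 0.28, edgeR FDR 8.06e-05).

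Genes that direct pyruvate and lactate moved in both directions. *Slc16a3* (the lactate exporter MCT4) rose with a log2 fold change of 1.09 (SE 0.28, edgeR FDR 0.015), and *Slc16a1* (the carrier MCT1) fell by 1.12 (SE 0.35, FDR 0.044), so that 1 rose and 1 fell of 6 tested. *Pdk1*, which switches pyruvate dehydrogenase off, rose with 0.91 (SE 0.20, FDR 0.0057), 1 of 11 glycolysis switches tested. *Pdha1*, a subunit of pyruvate dehydrogenase, rose with 0.88 (SE 0.28, FDR 0.047), 1 of 5 subunits, and did not pass without homo replicate 1 (0.68, FDR 0.083). *Sord* (sorbitol dehydrogenase) fell by 1.13 (SE 0.30, FDR 0.019), 1 of 2 genes of the polyol pathway, with 31.3% of its 50-base words shared with another gene. None of the 7 pentose phosphate genes or of the 3 gluconeogenesis genes tested was called.

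Of 13 other HIF-1 targets tested (of 15), 2 rose and 1 fell. *Ddit4* (an inhibitor of mTORC1 that ATF4 also induces) read 1.36, 1.69 and 2.10 CPM in WT and 5.15, 11.5 and 8.71 in homo, with no overlap (log2 fold change 2.29, SE 0.31, edgeR FDR 2.84e-05). Here homo replicate 1 was the lowest of its group. *Bnip3*, a mitophagy receptor, rose with 0.92 (SE 0.29, FDR 0.047) but had 0.35 (FDR 0.27) without homo replicate 1, and 47.2% of its 50-base words are shared with other genes. *Ndrg1* fell by 0.67 (SE 0.22, FDR 0.049). The calls of *Pgam2*, *Slc2a8*, *Pdk1* and *Ddit4* held under all 14 alternatives. The others were lost without single libraries: *Aldoc* without WT replicate 1, *Slc16a3* without WT replicate 1 or 2, *Sord* without WT or homo replicate 2, and *Pdha1* without WT or homo replicate 1 or 2. *Slc16a1* (without any WT library or homo replicate 2 or 3), *Bnip3* (any WT library or homo replicate 1) and *Ndrg1* (any WT library or homo replicate 3) were the least stable. With library size alone *Aldoc* (-0.47), *Slc16a1* (-0.65), *Sord* (-0.74) and *Ndrg1* (-0.24) did not pass. Within the line alone *Aldoc* (edgeR FDR 0.056), *Slc16a3* (0.058), *Bnip3* (0.10) and *Ndrg1* (0.14) did not pass. *Bnip3* was also lost by the edgeR likelihood-ratio test (FDR 0.11) and with the replicate block (0.058). *Ndrg1* was lost with all genes that had a count (edgeR FDR 0.14). Scaling without crystallins and *Gm42418* lost *Slc16a1* (edgeR FDR 0.051) and *Ndrg1* (0.063). In *Cryaa*-R49C-het none of the genes in these lists was called.

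In the *Cryab* line, 1 gene of these lists was called against WT in each mutant group, the enolase gene *Eno1b*. It read 0.661, 0.60 and 0.668 CPM in *Cryab*-WT, 5.86, 3.92 and 5.89 in het and 5.83, 8.03 and 2.37 in homo, with no overlap. The log2 fold changes were 3.01 (SE 0.41, edgeR FDR 0.0026) in het and 3.08 (SE 0.40, FDR 0.0017) in homo. The het call was lost without WT replicate 2 (FDR 0.061). Of its 50-base words 85.2% occur in other genes and 76.4% in *Eno1*, so its level is uncertain. *Eno1* itself read 92.1, 98.1 and 85.3 CPM in WT, 60.9, 79.1 and 69.1 in het and 85.3, 84.2 and 65.1 in homo and was not called.

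**Figure D5:**
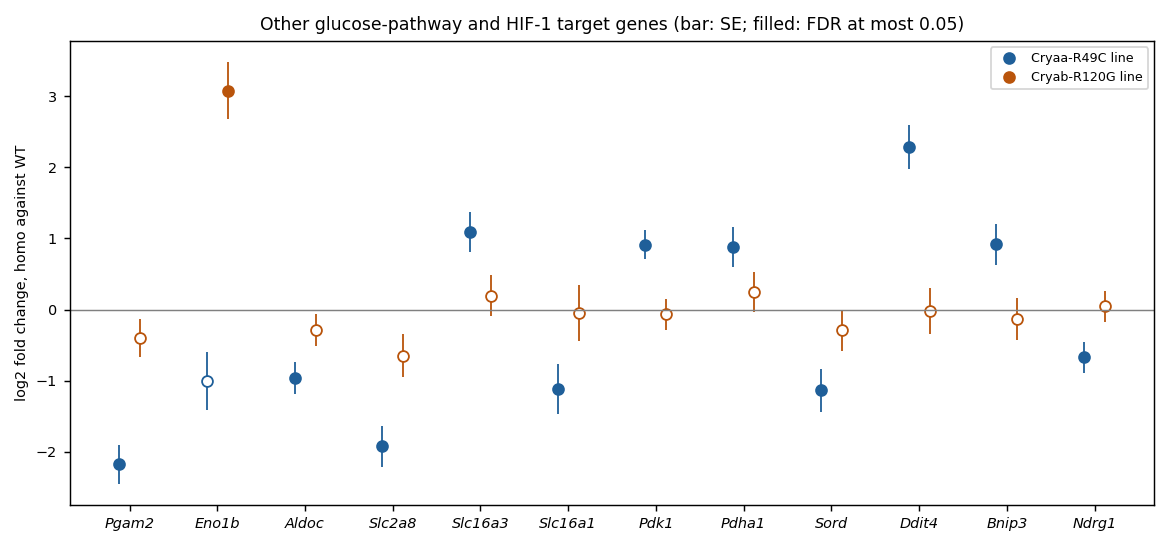
Log2 fold change of homo against WT in the *Cryaa*-R49C line (blue) and the *Cryab*-R120G line (orange) for the genes of the further lists that were called in at least 1 of them, with SE bars. Filled points passed an FDR of 0.05. In the *Cryaa* line 11 genes are filled, and in the *Cryab* line *Eno1b* alone.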

How the data were processed

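RNA-seq single reads from 18 libraries of pooled mouse lenses were aligned by the authors with STAR 2.0.4b to GRCm38 (base calls by CASAVA 1.8). The authors counted uniquely aligned reads per gene with featureCounts 1.4.5, and the deposited counts are whole numbers without normalization. The deposited RPKM values (CPM per kb, computed by the authors) served only to recover gene lengths. Tables of CPM and of moderated log2 CPM were not used. The count table lists 40800 Ensembl genes, with repeated lines for genes with several Entrez identifiers, of which 1 was kept. The strand setting of the counting is not given in the sources used here.

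Counts were analysed with edgeR 4.0.16 and limma 3.58.1 in R 4.3.3. The 13938 genes kept by filterByExpr were scaled with TMM (factors 0.488 to 2.27) and fitted in 1 model of 6 groups with the robust quasi-likelihood fit. P-values were adjusted over all tested genes. The study's own rule, every gene with at least 1 count (26547 genes), was an alternative, since it made the prior degrees of freedom infinite (10.2 with the filter). Other alternatives were library size alone, DESeq2 size factors, scaling without crystallins and *Gm42418*, DESeq2 1.42.0, the likelihood-ratio test, 1 line only, a replicate block and leaving out each library. The test was checked on simulated data. Replicates differed by more than sampling noise in every pair (chi-square per degree of freedom 7.36 to 937). Intervals cover the spread between libraries as fitted.

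The members and gene lists were chosen with earlier results of these data known. The genes named are the 10 members, from each pathway list up to 3 genes with the lowest p among those called in het or homo against WT, called markers, and the 5 genes most like the members. Values of 1 called marker are not reported here. Lists were described by counts, with no list test. Replicate numbers pair samples where every same-numbered correlation of deviations exceeds 0.1, which held only for *Cryab*-R120G-homo against *Cryab*-WT (0.28, 0.18 and 0.16). Shared 50-base words and overlaps came from GENCODE vM21, and promoters from RefSeq.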

Additional observations from a re-analysis of the deposited data

Results flagged for a closer look

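For 3 of 67 tested genes of the pathway lists (4.48%, against 2.91% of all tested genes) and 6 markers, the effect of homo against WT differed between the lines by a test of the difference itself in edgeR. Line and age cannot be told apart in these values, which are log2 differences, *Cryab* minus *Cryaa*. *Pgam2*, which fell in the *Cryaa* line, differed by 1.78 (SE 0.37, edgeR FDR 0.0086). *Eno1b*, which rose in the *Cryab* line, differed by 4.09 (SE 0.58, FDR 0.00015), with most of its sequence shared with *Eno1*. *Ddit4*, which rose in the *Cryaa* line, differed by -2.31 (SE 0.44, FDR 0.0041). Among fibre markers, *Birc7* (log2 fold change -1.94 in *Cryaa*-R49C-homo) differed by 1.83 (SE 0.36, FDR 0.0050). *Bfsp1* differed by 1.83 as well (SE 0.47, FDR 0.034), and its FDR ran from 0.053 to 0.10 without *Cryaa*-WT replicate 1 or 2, *Cryaa*-R49C-homo replicate 3, *Cryab*-WT replicate 2 or 3, or *Cryab*-R120G-homo replicate 2 or 3. The epithelial connexin gene *Gja1* differed by 1.89 (SE 0.39, FDR 0.0080, and 0.076 with scaling by library size alone). The pigment cell gene *Pmel* differed by 3.73 (SE 0.69, FDR 0.0047). Among the other pigment cell markers, looked at after their values were seen, *Dct* differed by 2.39 (SE 0.57, FDR 0.024). *Tyr* also passed (FDR 0.022), but it was at 0 in all *Cryab*-WT libraries, so no size is given. Causes of these differences were not tested.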

How the results depend on the processing

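The count of the 10 genes called depended on the test and on single libraries, as did the share of all tested genes called in the same fit, given in brackets. For *Cryaa*-R49C-homo against WT it was 1 (9.79%), 3 by the edgeR likelihood-ratio test (20.7%; *Pgk1*, *Gapdh* and *Pkm*), and 0 to 2 when 1 library was left out (5.03% to 21.5%). Homo against het gave 0 (8.32%), 1 with all genes that had a count (5.35%; *Gapdh*, -1.01, FDR 0.0050), 3 by the likelihood-ratio test (21.9%) and 0 to 4 leaving out 1 library (3.16% to 28.7%). *Cryab*-R120G-homo against WT gave 0 (0.0502%), and 1 by the likelihood-ratio test (1.84%). The WT groups gave 1 (23.2%), 2 by DESeq2 (25.1%), 3 by the likelihood-ratio test (32.9%) and 8 with library size alone (83.2%), which reversed *Slc2a1* (-1.46), *Pfkl* (-1.002), *Aldoa* (-0.86), *Pgk1* (-0.57), *Pkm* (-1.08) and *Ldha* (-0.96). The difference of homo effects gave 0 (2.91%), and 0 to 2 leaving out 1 library (1.68% to 12.5%).

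Of the other pathway genes, *Cryaa*-R49C-homo against WT called 11, 7 within the line alone (7.46%) and 5 to 17 leaving out 1 library. Homo against het called 7, 17 by the likelihood-ratio test and 2 to 23. *Cryab*-R120G-het called 1 (0.00717%), 0 within the line (0%) and 0 to 1 (0% to 0.0207%). *Cryab*-R120G-homo called 1, 2 with all genes (1.14%) and 3 by the likelihood-ratio test. The WT groups called 23, and 48 with library size alone (1 higher). The difference of homo effects called 3, 5 with all genes (3.01%), 5 by DESeq2 (4.49%), 8 by the likelihood-ratio test (10.4%) and 3 to 9. That of het effects called 0 (0%), 1 under each of these 3 (0.331%, 0.043% and 0.129%) and 0 to 1 (0% to 0.0138%). Shares not repeated are those of the same fit above. In the paired fit with the replicate block the WT groups gave 2 members (25.1% of all tested genes; *Aldoa* joined, FDR 0.039), though their numbers share no origin. In *Cryab*-R120G-homo against WT, the 1 comparison whose numbers paired, the block changed no member's call.

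Of 3059 refitted values for single genes, 2768 kept direction and side of the threshold, 152 stayed uncalled with the other sign, 44 came to pass, 89 no longer passed and 6 reversed with a call in either fit. Within lines the median log2 value over all tested genes was -0.01 to 0.02 with TMM and 0.15 to 0.41 with library size alone. Depth limits *Slc2a3* (0 to 25 counts). The cause of these changes was not tested.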

Other observations

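Among 3079 other genes with a mean CPM of at least 10, the 5 whose levels ran most like the mean of the 10 genes over 18 libraries, each centred on its line, were *Atp6v1h* (a subunit of the vacuolar proton pump, Pearson r 0.89), *Dld* (a subunit of pyruvate dehydrogenase, 0.87), *Snx2* (a sorting nexin, 0.84), *Hprt* (purine salvage, 0.84) and *Nae1* (a subunit of the NEDD8-activating enzyme, 0.84). These values are a description, since libraries share depth and composition. Measured the same way against the mean of the other 9, *Ldha* ran closest (0.89), followed by *Pfkl* (0.67) and *Aldoa* (0.58), while *Hk1* (0.11) and *Slc2a1* (-0.10) hardly ran with the rest.

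Between the WT groups, 23 of 67 tested genes of the 9 pathway lists were called (34.3%, against 23.2% of all tested genes), 19 higher and 4 lower in *Cryab*-WT at 14 days. Of lactate and pyruvate carriers 5 of 6 tested were higher, as were both polyol genes, 6 of 13 other HIF-1 targets, and 4 of 15 other glycolysis enzymes with 2 lower. With library size alone 48 were called and 1 of them was higher. Of the 8 pigment epithelium and melanocyte markers in the *Cryab* line, none was called by the quasi-likelihood test over the 13938 filtered genes, but at an unadjusted p under 0.05 there were 7 of 8 in het and 6 of 8 in homo (3.82% and 6.1% of all tested genes), and 7 of 8 did not overlap with WT in each (10.1% and 9% of all tested genes). With all genes that had a count and by the edgeR likelihood-ratio test, *Pmel* was called higher in het and homo and *Mlana* in het. The erythrocyte markers summed to 146, 15.6 and 24.3 CPM in *Cryab*-WT, 451, 134 and 204 in het and 49.2, 178 and 111 in homo. None was called by edgeR, but in het all 5 tested had an unadjusted p under 0.05 and 3 did not overlap with WT, with a median log2 fold change of 2.30, against 0 of 5 on both counts in homo. Photoreceptor markers in *Cryaa*-R49C-homo summed to 12.5, 13.3 and 22.0 CPM. The ratio of *Slc2a1* to *Slc2a3* per kb, from counts summed over a group, was 397, 450.3 and 356 in *Cryaa*-WT, het and homo and 1118, 634 and 159 in *Cryab*-WT, het and homo, resting on 28, 36, 38, 5, 9 and 33 counts of *Slc2a3*, and was not tested.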
